A study of Mus musculus with 12 samples.

Results

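The genes described here are 47 genes of the striated muscle sarcomere, the contractile unit of skeletal and cardiac muscle, measured in the aorta of mice. They were chosen by name: every array probe that is not a control and whose gene name is on a written list of sarcomere genes belongs to the set. All 47 genes were on the array, with 62 of its 55675 probes and 47 of its 34796 gene names. The list was divided by the fibre in which each gene is mainly used, into 14 fast skeletal genes, 4 genes of all skeletal muscle, 3 slow skeletal genes, 6 genes shared by slow and cardiac muscle, 8 cardiac genes and 12 genes common to striated muscle.

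The study used male C57BL/6J mice aged 11 to 14 weeks, and RNA was taken on day 3 from the aorta above the branch of the right renal artery. The DMSO group received the vehicle dimethylsulfoxide alone, and the rapamycin group received rapamycin, an inhibitor of the kinase mTOR, at 2 mg/kg/day in that vehicle. The BA+DMSO group received the vehicle with the challenge, which joined beta-aminopropionitrile (BAPN), an inhibitor of collagen crosslinking, at 150 mg/kg/day and angiotensin II (AngII), a hormone that raises blood pressure, at 1 µg/kg/min from a minipump. The BA+rapamycin group received the challenge and rapamycin at the same doses. Each group had 3 arrays, and the labels name no transgene or deletion. The labels do not say whether the arrays of a group came from separate mice, so p-values measure the spread between these arrays.

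Sarcomeres are built from thin filaments of actin with troponin and thick filaments of myosin, held together at the Z-disc and the M-band. Fast skeletal, slow skeletal and cardiac fibres each use their own versions of many of these proteins, so that the genes in use tell the fibres apart. The wall of the aorta is made of smooth muscle, which contracts with other actin and myosin genes and has no sarcomeres. Cardiac-type muscle extends from the heart into the roots of the great vessels, and skeletal muscle lies close to parts of the aorta. The samples came from the aorta above the right renal branch, and whether they held either kind of muscle was not tested.

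Values are log2 differences from the 75th percentile of an array, so that 0 is the level of that percentile. The 75th percentile itself, a measure of brightness, lay between 221.4 and 279.7 intensity units for DMSO, 257.2 and 337.3 for rapamycin, 78.06 and 246.4 for BA+DMSO and 74.61 and 109.3 for BA+rapamycin. The dimmer arrays have a higher lower limit: the lowest value well above background was between -4.52 and -3.71 on the DMSO and rapamycin arrays, between -3.95 and -2.61 on the BA+DMSO arrays and between -2.95 and -2.29 on the BA+rapamycin arrays. The DMSO arrays and rapamycin replicate 1 lay on 1 slide and all others on the second, so that slide and challenge nearly coincide. BA+DMSO replicate 2 stood apart from the other BA+DMSO arrays for many of the genes, and results that rest on it are given with and without it. It was singled out by the values of these same genes, so adjusted p-values from fits without it are not independent support.

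Of the 47 genes, 33 gave a signal clear of background on every array of some group and were tested, and 21 of these were well above background on all 12 arrays. The tested genes comprise 9 of 14 fast skeletal genes, 2 of 4 genes of all skeletal muscle, 1 of 3 slow skeletal genes, 4 of 6 slow and cardiac genes, 8 of 8 cardiac genes and 9 of 12 common genes. A gene could enter through the group where it was highest, so counts among the 33 describe those genes and not the whole list. Another 6 genes were above background on no array: the fast myosin heavy chain Myh4, the fast regulatory light chain Mylpf, the Z-disc gene Myot, the skeletal calcium release channel Ryr1, the slow troponin I gene Tnni1 and the actin-binding gene Xirp2. The last 8 passed on some arrays only, among them the giant spring protein titin (Ttn) on 5 arrays, the slow and cardiac troponin C gene Tnnc1 on 6 and the mitochondrial creatine kinase Ckmt2 on 3.

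**Figure D1:**
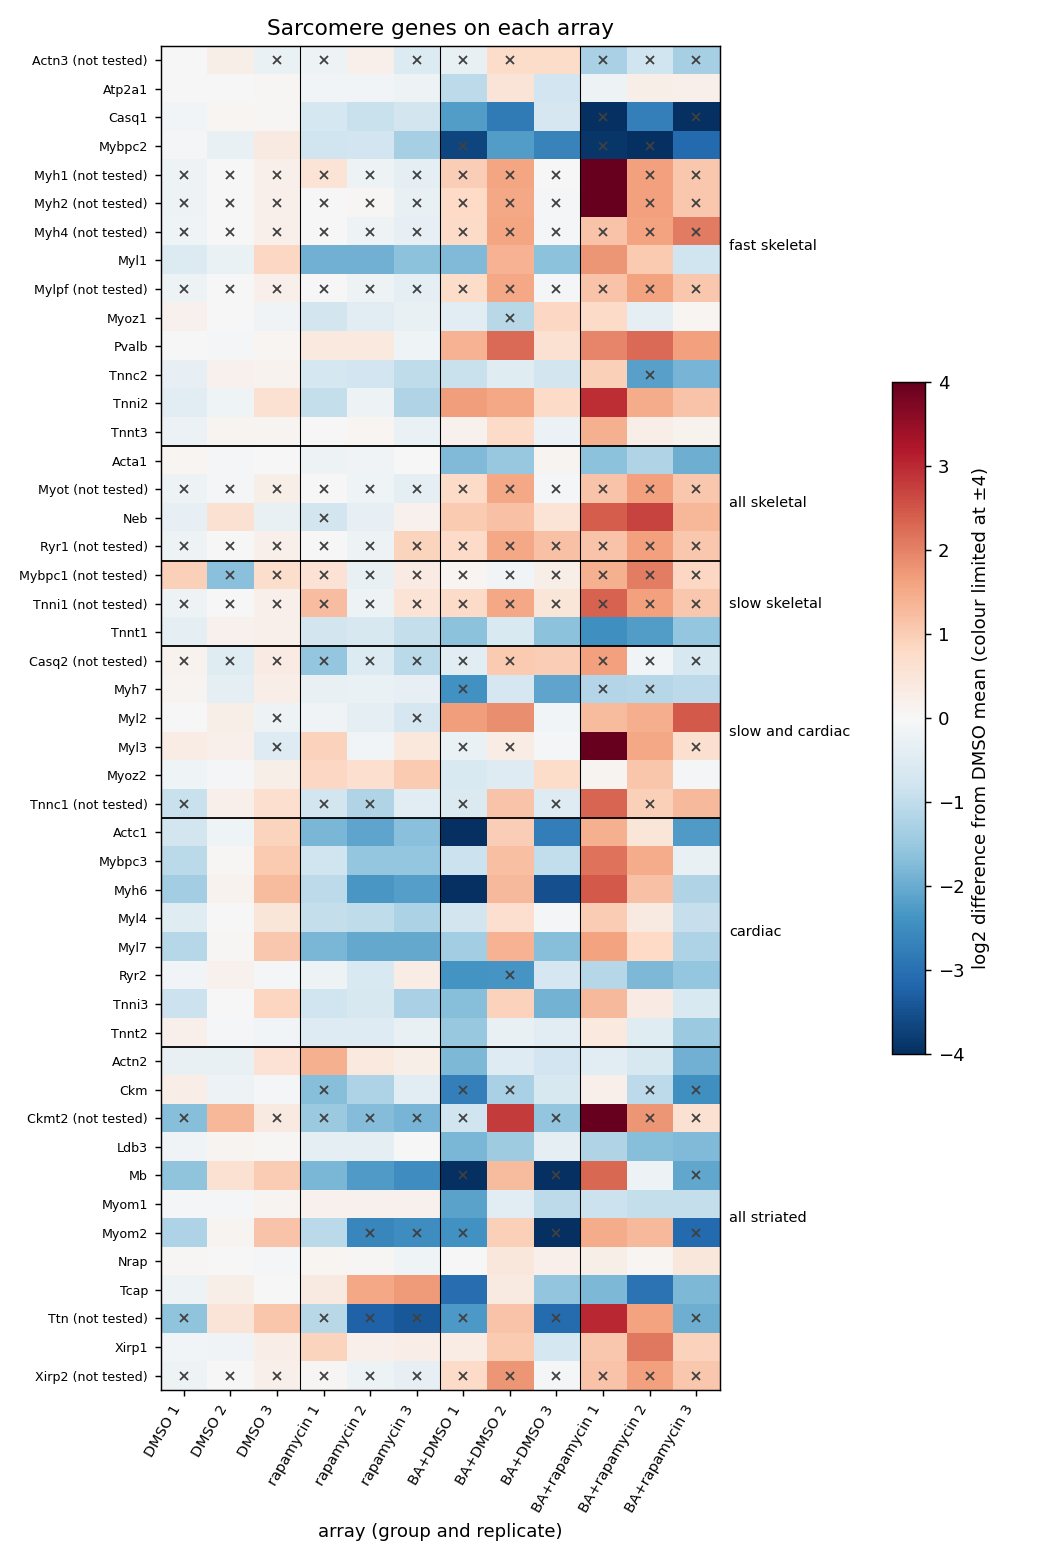
Difference of each of the 47 genes (rows, grouped by fibre) from its DMSO mean on each of the 12 arrays (columns), as a log2 colour scale limited at 4 in either direction; crosses mark values not well above background. Casq1 and Mybpc2 are blue on the challenged arrays, while most cardiac genes are red on BA+DMSO replicate 2 and BA+rapamycin replicate 1 and blue on BA+DMSO replicates 1 and 3.

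Acta1, Mybpc2 and Casq1 stand for the falls described next, and their probes are shown because each result rests on 60 bases. They are given in lower case, 5′ to 3′, as the deposited array files list them, on the mouse build mm9; the exons they lie in were not analysed here. The Acta1 probe lies at chr8:126416197-126416256, the Mybpc2 probe at chr7:51759105-51759164 and the Casq1 probe at chr1:174140602-174142105, all on the minus strand. The Casq1 probe covers 1504 bases of genome with its 60 bases, so it joins separate stretches.
Acta1: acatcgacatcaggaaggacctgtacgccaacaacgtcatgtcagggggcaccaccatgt
Mybpc2: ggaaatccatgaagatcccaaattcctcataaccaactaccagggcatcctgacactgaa
Casq1: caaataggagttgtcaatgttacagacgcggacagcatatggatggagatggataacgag

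The promoters of sarcomere genes carry short control sequences bound by muscle transcription factors, of which the CArG box, bound by serum response factor (Srf), is the best known. The 250 bases before the start of each gene were taken from RefSeq on the build GRCm38.p6, where 38 of the 47 genes matched, and were searched on both strands. A CArG box was found in 7 of the 38 genes (18.4%) and in 439 of all 27025 genes with such a sequence (1.62%). The MEF2 site, bound by the Mef2 factors, was found in 8 of 38 (21.1%) against 3.42% of all genes, and the motif CATTCC, bound by TEAD factors, in 11 of 38 (28.9%) against 14.4%. A match describes letters and not a bound site, and the motifs may overlap one another.

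The CArG promoters of 5 tested genes are printed with the CArG box in capitals, since they include genes that fell together under the challenge (Ldb3, Myom1 and, with rapamycin, Acta1) and cardiac genes that differed widely between arrays of a group (Actc1, Myl7). The tested gene Myl3 also has a CArG box but did not fall (-0.01, and 1.84 with rapamycin, neither called), and it is not printed. Mybpc2, Casq1, Tnnt1 and Ryr2 fell and had no CArG box in these bases. A link between the box and the falls was not tested. All printed promoters run 5′ to 3′ on the strand of the gene. The places are chr8:123894776-123895025 (minus) for Acta1, chr14:34588682-34588931 (minus) for Ldb3, chr17:71019307-71019556 (plus) for Myom1, chr2:114052876-114053125 (minus) for Actc1 and chr11:5898783-5899032 (minus) for Myl7.
Acta1: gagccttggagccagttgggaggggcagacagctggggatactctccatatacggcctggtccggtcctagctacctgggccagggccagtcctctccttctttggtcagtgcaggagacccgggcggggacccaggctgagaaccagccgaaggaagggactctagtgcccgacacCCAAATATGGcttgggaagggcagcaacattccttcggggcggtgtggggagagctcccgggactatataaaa
Ldb3: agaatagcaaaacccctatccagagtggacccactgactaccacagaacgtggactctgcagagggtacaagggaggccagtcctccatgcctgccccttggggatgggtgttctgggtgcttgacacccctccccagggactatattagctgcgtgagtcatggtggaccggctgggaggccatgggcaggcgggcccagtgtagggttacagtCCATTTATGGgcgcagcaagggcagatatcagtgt
Myom1: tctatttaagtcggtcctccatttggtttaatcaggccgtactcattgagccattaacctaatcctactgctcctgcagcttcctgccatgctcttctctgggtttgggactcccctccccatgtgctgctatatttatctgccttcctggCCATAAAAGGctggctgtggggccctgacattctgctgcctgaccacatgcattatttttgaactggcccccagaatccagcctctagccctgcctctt
Actc1: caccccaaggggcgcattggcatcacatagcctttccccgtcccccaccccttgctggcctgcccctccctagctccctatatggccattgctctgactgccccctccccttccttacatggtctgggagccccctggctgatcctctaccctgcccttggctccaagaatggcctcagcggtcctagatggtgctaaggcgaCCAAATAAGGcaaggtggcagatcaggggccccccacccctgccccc
Myl7: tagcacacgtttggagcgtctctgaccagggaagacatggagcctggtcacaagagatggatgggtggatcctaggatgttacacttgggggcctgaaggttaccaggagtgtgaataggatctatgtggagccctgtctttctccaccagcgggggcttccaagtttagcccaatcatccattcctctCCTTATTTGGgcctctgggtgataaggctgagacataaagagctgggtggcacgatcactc

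The first comparison asked what the challenge alone did, setting BA+DMSO against DMSO. The fast fibre genes Mybpc2 and Casq1, the cardiac calcium channel gene Ryr2, the myosin Myh7, the slow troponin Tnnt1 and the scaffold genes Ldb3 and Myom1 fell, by 1.21 to 2.87 on the log2 scale, and the calcium buffer Pvalb rose by 1.42. Of the 33 tested genes, 8 passed the test (limma, Benjamini-Hochberg adjusted p under 0.05), 7 of them lower. Among all genes tested, 21.4% passed, 10.4% higher and 11% lower (8 of 33 is near that share). The median difference of the 33 was -0.74, against -0.02 for all genes, with 26 lower and 7 higher. The challenged and DMSO arrays did not overlap for 13 of the 33 genes, 11 of them lower, and for 35.6% of all genes. With slide as a block 0 of the 33 were called, and 0.0599% of all genes were. The count fell to 4, 2 and 4 without DMSO replicates 1, 2 and 3 and to 3 without BA+DMSO replicate 1, and was 12 without BA+DMSO replicate 2 or 3. The share of all genes called moved with it, to between 7.87% and 12.6% in the first 4 of these fits and to 28.4% and 39.4% in the last 2. With array brightness as a covariate 7 of the 33 were called, against 19.5% of all genes, and 4 of them were among the 8. Ldb3 (-0.64), Casq1 (-1.27), Ryr2 (-0.87) and Pvalb (0.55) then had adjusted p of 0.0571 to 0.193. In bulk tissue, fewer cells of a type and less RNA per cell cannot be told apart.

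The second comparison set BA+rapamycin against rapamycin and asked what the challenge did where the drug was present. It shares no array with the first. Throughout the text, a difference or count "with rapamycin" refers to this comparison. It is an effect of the challenge in treated mice and not an effect of the drug. Mybpc2, Casq1, Ryr2, Tnnt1, Ldb3 and Myom1 fell here too, joined by Tcap, Actn2 and Acta1, while the fast genes Tnni2, Myl1 and Pvalb, the skeletal gene Neb, the cardiac genes Mybpc3 and Myl7 and the shared gene Myl2 rose. Of the 33 genes, 16 passed the test, 9 lower and 7 higher, where 42.7% of all genes passed (22.9% lower and 19.8% higher). The median difference was 0.65, with 20 genes higher and 13 lower, and 21 of the 33 did not overlap between groups, against 67.8% of all genes. Among the 33, 7 were called in both comparisons, namely Casq1, Mybpc2, Ldb3, Myom1, Ryr2 and Tnnt1 lower and Pvalb higher. The sign was the same in 20 of 33 genes and opposite in 13, among them 6 of the 8 cardiac genes. Within the second slide, which leaves rapamycin replicates 2 and 3, 7 of the 33 were called, where 12% of all genes were. With array brightness as a covariate 2 were called, where 6.91% of all genes were, and the median turned to -0.31. Of the 16 called genes Tnnt1 alone still passed with the covariate (-2.13, adjusted p = 0.038), and the adjusted p of the other 15 was 0.0558 to 0.976. Without rapamycin replicate 3 the count was 10, against 24.2% of all genes. With the values of all arrays raised to 1 common floor of -2.285, the highest of the lower limits above, 13 were called, 3 higher (Neb, Pvalb and Tnni2) and 10 lower, where 39.5% of all genes were, and Mybpc3, Myl1, Myl2 and Myl7 no longer passed.

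**Figure D2:**
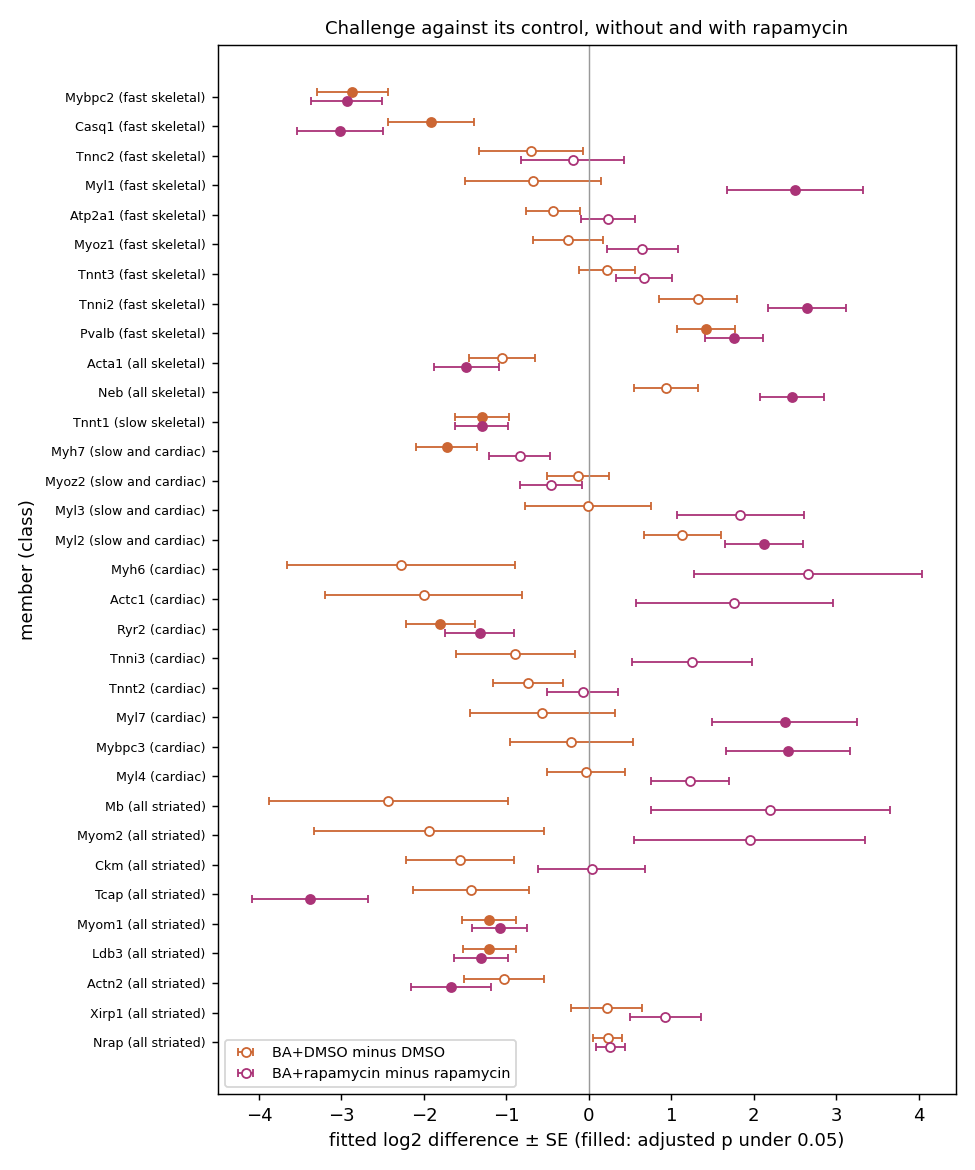
Fitted log2 difference with its SE for each of the 33 tested genes, for the challenge without rapamycin (orange) and with it (purple); filled points passed the test. Mybpc2, Casq1, Tnnt1, Ldb3, Myom1 and Ryr2 lie left of 0 in both, and the cardiac genes Myh6, Actc1, Tnni3, Myl7 and Mybpc3 lie left of 0 without rapamycin and right of 0 with it.

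Among thin filament genes, Acta1 encodes skeletal alpha-actin, the actin of adult skeletal fibres. Its values were 5.91, 5.81 and 5.82 for DMSO, 5.64, 5.70 and 5.88 for rapamycin, 4.09, 4.34 and 5.95 for BA+DMSO and 4.22, 4.64 and 3.90 for BA+rapamycin. All 3 BA+rapamycin arrays were below all rapamycin arrays, whereas BA+DMSO replicate 3 stayed at the DMSO level. The fall was -1.49 (SE 0.40, adjusted p = 0.0143) with rapamycin, and without it the difference was -1.05 (SE 0.40, adjusted p = 0.0842). Without rapamycin replicate 3 or BA+rapamycin replicate 3 the first adjusted p was 0.0516 and 0.0528, within the second slide it was 0.0832, and with array brightness as a covariate the difference shrank to -0.35 (adjusted p = 0.758). The actins of skeletal, cardiac and smooth muscle are very much alike, and binding of other actin transcripts to this probe was not tested. The probe of Acta2, the smooth muscle actin, differed by 0.27 (SE 0.21, adjusted p = 0.402) under the challenge and by 0.52 (SE 0.21, adjusted p = 0.0707) with rapamycin.

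Tnnt1 encodes the slow skeletal troponin T, which ties the calcium sensor to the thin filament, and was the only tested gene of the slow skeletal class. It read 2.11, 2.69 and 2.72 for DMSO, 1.78, 1.85 and 1.57 for rapamycin, 0.85, 1.91 and 0.87 for BA+DMSO and 0.05, 0.28 and 0.97 for BA+rapamycin. Every challenged array was below every array of its own control group, and the difference was -1.30 (SE 0.32) in both comparisons (adjusted p = 0.0188 and 0.0105). The first adjusted p was between 0.0674 and 0.0791 without DMSO replicate 2 or 3 or BA+DMSO replicate 1. A second, dimmer Tnnt1 probe fell by 1.40 under the challenge (adjusted p = 0.0455). With rapamycin it was at least 1.54-fold lower (adjusted p = 0.0132), since no BA+rapamycin array was well above background.

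Fast fibres have troponin genes of their own. Tnni2, the fast troponin I gene, read -2.07, -1.80 and -1.01 for DMSO, -2.56, -1.83 and -2.83 for rapamycin, 0.04, -0.08 and -0.85 for BA+DMSO and 1.34, -0.14 and -0.47 for BA+rapamycin. It was higher on every challenged array than on any unchallenged one. The rise with rapamycin was 2.65 (SE 0.48, adjusted p = 0.00247), and without rapamycin the difference was 1.33 (SE 0.48, adjusted p = 0.0707). Tnnc2, the fast troponin C gene, read -0.26, 0.25 and 0.22 for DMSO, -0.62, -0.70 and -0.94 for rapamycin, -0.82, -0.41 and -0.67 for BA+DMSO and 1.03, -2.11 and -1.78 for BA+rapamycin. It passed no test, and its BA+rapamycin arrays spread more widely than all other arrays together. Tnnt3, the fast troponin T gene, differed by 0.22 (adjusted p = 0.674) and 0.67 (adjusted p = 0.13); its second tested probe gave 0.11 and a rise of 1.27 (adjusted p = 0.0179).

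Neb encodes nebulin, the ruler of the thin filament in skeletal muscle. Its values were -3.48, -2.57 and -3.45 for DMSO, -3.90, -3.50 and -3.0 for rapamycin, -2.10, -1.99 and -2.61 for BA+DMSO and -0.73, -0.46 and -1.83 for BA+rapamycin. It rose by 2.46 with rapamycin (SE 0.39, adjusted p = 0.00138), while the difference without rapamycin was 0.93 (SE 0.39, adjusted p = 0.111). These values lie near the lower limit of the arrays. The same holds for genes with no signal: Myh4, above background on no array, had means of -6.13 for DMSO, -6.30 for rapamycin, -5.37 for BA+DMSO and -4.52 for BA+rapamycin. With the common floor the rise of Neb with rapamycin was 1.28 (adjusted p = 0.0107). The other 2 Neb probes were above background on no array.

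In the thick filament, Mybpc2 encodes the fast form of myosin-binding protein C, which holds myosin heads in register. It showed the largest fall of any sarcomere gene under the challenge alone. The values were 0.55, 0.31 and 0.97 for DMSO, -0.17, -0.17 and -0.72 for rapamycin, -3.07, -1.64 and -2.06 for BA+DMSO and -3.27, -4.11 and -2.50 for BA+rapamycin. The groups did not overlap in either comparison, but Mybpc2 cleared the background on only 2 of 3 BA+DMSO arrays and 1 of 3 BA+rapamycin arrays, so the lowest values are limited by background. The differences were -2.87 (SE 0.43, adjusted p = 0.00178) and -2.94 (SE 0.43, adjusted p = 0.000993), and both passed with any 1 array left out. Over all alternatives they were -3.17 to -1.63 and -3.47 to -0.84. The first did not pass with slide as a block or with array weights (adjusted p up to 0.302). The second did not pass with array brightness as a covariate (adjusted p = 0.0558).

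Mybpc3 is its cardiac counterpart. It read -2.82, -1.70 and -0.67 for DMSO, -2.54, -3.27 and -3.29 for rapamycin, -2.58, -0.53 and -2.73 for BA+DMSO and 0.43, -0.26 and -2.04 for BA+rapamycin. The rise with rapamycin was 2.41 (SE 0.75, adjusted p = 0.0254), and the difference without rapamycin was -0.22 (SE 0.75, adjusted p = 0.863). The rise had an adjusted p of 0.0697 to 0.0841 without rapamycin replicate 2 or 3 or BA+rapamycin replicate 1 or 2, and the difference was 1.67 with the common floor (adjusted p = 0.0947) and 0.18 with array brightness as a covariate (adjusted p = 0.939).

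Among myosin heavy chains, Myh7 is the slow and cardiac form and Myh6 the form of the atrium and the adult mouse heart. Myh7 read -1.41, -1.87 and -1.25 for DMSO, -1.80, -1.76 and -1.83 for rapamycin, -3.92, -2.17 and -3.60 for BA+DMSO and -2.68, -2.66 and -2.56 for BA+rapamycin. It was the only gene called under the challenge alone and not with rapamycin, with differences of -1.73 (SE 0.37, adjusted p = 0.00953) and -0.84 (SE 0.37, adjusted p = 0.0856). That the 2 effects differ was not shown, since the interaction was 0.89 (SE 0.52, adjusted p = 0.737). It cleared the background on 2 of 3 BA+DMSO arrays and 1 of 3 BA+rapamycin arrays, and with the common floor the first difference was -0.74 (adjusted p = 0.00572).

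Myh6 varied far more between arrays of a group. It read 1.52, 3.06 and 4.18 for DMSO, 1.86, 0.59 and 0.73 for rapamycin, -1.69, 4.22 and -0.61 for BA+DMSO and 5.37, 4.08 and 1.71 for BA+rapamycin. Within BA+DMSO the highest array exceeded the lowest by more than any difference between group means, and neither difference passed the test (-2.28, adjusted p = 0.263, and 2.66, adjusted p = 0.138). The other Myh6 probe was above background on 2 arrays only, DMSO replicate 3 and BA+rapamycin replicate 1. Its mean was -4.69, against 2.08 for the tested probe, so the Myh6 values here rest on 1 probe.

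The light chain Myl1 belongs to fast fibres and Myl4 to the atrium. Myl1 read -1.15, -0.86 and 0.23 for DMSO, -2.51, -2.53 and -2.24 for rapamycin, -2.36, 0.79 and -2.24 for BA+DMSO and 1.17, 0.46 and -1.40 for BA+rapamycin. Its rise with rapamycin was 2.50 (SE 0.83, adjusted p = 0.0328), and without rapamycin the difference was -0.68 (SE 0.83, adjusted p = 0.595). Myl4 read 2.97, 3.46 and 3.96 for DMSO, 2.52, 2.44 and 2.21 for rapamycin, 2.73, 4.15 and 3.42 for BA+DMSO and 4.47, 3.83 and 2.54 for BA+rapamycin. The BA+rapamycin and rapamycin arrays of Myl4 did not overlap, with a difference of 1.22 (SE 0.48, adjusted p = 0.0587). Of the other light chains, Myl7 (atrial) rose by 2.37 (adjusted p = 0.0498) and Myl2 (slow and ventricular) by 2.12 (adjusted p = 0.00638) with rapamycin. With array brightness as a covariate the differences of Myl1 and Myl7 turned to -0.08 and -0.47 and that of Myl2 shrank to 0.66. The adjusted p of Myl1 was 0.0742 to 0.105 without any 1 of the rapamycin arrays or BA+rapamycin replicate 1 or 2, and that of Myl7 passed 0.05 without any 1 of 9 arrays (0.0504 to 0.155), whereas Myl2 passed with any 1 array left out. With the common floor the adjusted p was 0.0707 for Myl1 and 0.0852 for Myl7, and the difference of Myl2 was 0.41 (adjusted p = 0.239). A second probe of Myl1 was above background on 1 array and a second probe of Myl2 on none.

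Myom1, Ldb3 and Tcap, scaffold genes of the M-band and Z-disc, were well above background on every array. Myom1 encodes myomesin, which crosslinks myosin at the M-band. Its values were 5.03, 5.05 and 5.22 for DMSO, 5.26, 5.27 and 5.28 for rapamycin, 2.95, 4.64 and 4.06 for BA+DMSO and 4.25, 4.15 and 4.16 for BA+rapamycin. The BA+rapamycin arrays lay close together and all below the rapamycin arrays, and BA+DMSO replicate 1 was the lowest of all. The falls were -1.22 (SE 0.33, adjusted p = 0.0253) and -1.08 (SE 0.33, adjusted p = 0.0231). The first adjusted p was 0.0626 to 0.0785 without any 1 of the DMSO arrays, and the second 0.0575 to 0.0666 without any 1 of the rapamycin arrays or BA+rapamycin replicate 2 or 3.

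Ldb3 encodes a protein that anchors alpha-actinin at the Z-disc, known also as Cypher or ZASP. It read 3.33, 3.59 and 3.51 for DMSO, 3.08, 3.09 and 3.48 for rapamycin, 1.66, 2.04 and 3.11 for BA+DMSO and 2.26, 1.76 and 1.70 for BA+rapamycin. No challenged array reached the lowest array of its control group, and the falls were -1.21 (SE 0.32, adjusted p = 0.0247) and -1.31 (SE 0.32, adjusted p = 0.00999). The first adjusted p was 0.0503 to 0.0921 without any 1 of the DMSO arrays or BA+DMSO replicate 1 or 2. The second difference shrank to -0.31 (adjusted p = 0.706) with array brightness as a covariate. A second, dimmer Ldb3 probe differed by -0.58 (adjusted p = 0.237) and -0.52 (adjusted p = 0.221).

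Tcap encodes telethonin, the cap that joins titin to the Z-disc. The values were 4.90, 5.34 and 5.10 for DMSO, 5.48, 6.65 and 6.83 for rapamycin, 2.07, 5.46 and 3.53 for BA+DMSO and 3.33, 2.16 and 3.32 for BA+rapamycin. The rapamycin arrays were above all others and the BA+rapamycin arrays far below them. The fall with rapamycin was -3.39 (SE 0.70, adjusted p = 0.0047), the largest of the 33 genes in that comparison, and without it the difference was -1.43 (SE 0.70, adjusted p = 0.172).

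Actn2, the alpha-actinin of striated muscle, read -0.70, -0.70 and 0.16 for DMSO, 1.02, -0.01 and -0.19 for rapamycin, -2.21, -0.91 and -1.18 for BA+DMSO and -0.82, -1.04 and -2.34 for BA+rapamycin. It fell by 1.67 with rapamycin (SE 0.49, adjusted p = 0.0197), but a second tested probe of the gene gave 0.05 (adjusted p = 0.953), so its direction depends on the probe. The adjusted p of the first probe was 0.0762 and 0.074 without rapamycin replicate 1 or BA+rapamycin replicate 3. Myoz2, a Z-disc partner of calcineurin in slow and cardiac muscle, read 1.42, 1.57 and 1.82 for DMSO, 2.42, 2.27 and 2.65 for rapamycin, 1.00, 1.1 and 2.32 for BA+DMSO and 1.70, 2.72 and 1.53 for BA+rapamycin. Every rapamycin array of Myoz2 was above every DMSO array, yet no difference passed the test. Nrap, which organises actin during sarcomere assembly, was the steadiest gene, with a spread within groups of 0.16 and values between 0.14 and 0.77 on all 12 arrays. The other Nrap probe was above background on no array, so these values rest on 1 probe.

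**Figure D3:**
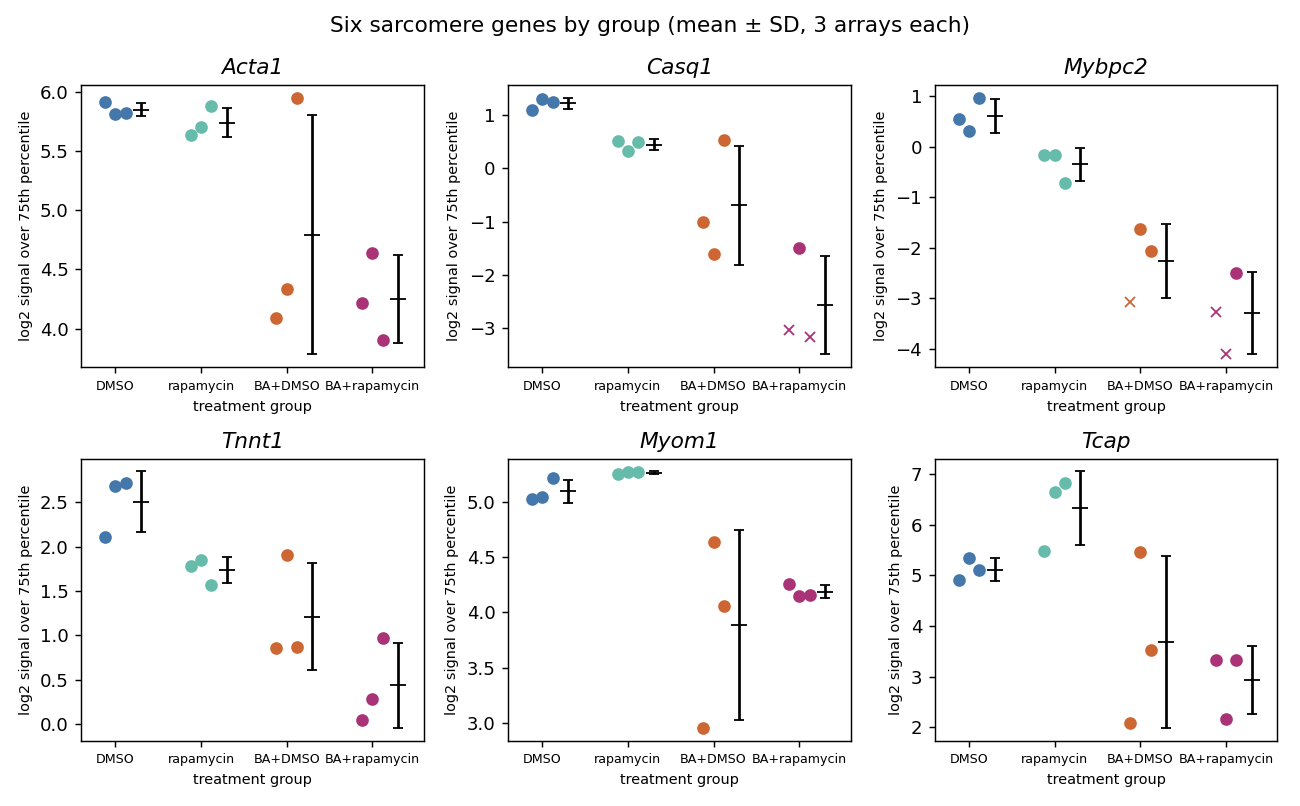
Values of Acta1, Casq1, Mybpc2, Tnnt1, Myom1 and Tcap on each array (log2 signal over the 75th percentile of the array) by treatment group, with the mean and SD of 3 arrays; crosses are values not well above background. Tcap is highest in rapamycin (5.48 to 6.83), and BA+DMSO replicate 3 of Acta1 (5.95) is at the DMSO level.

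Calcium handling is the part of the muscle fibre that switches the filaments on and off. Casq1, the calcium-storing protein of the fast sarcoplasmic reticulum, read 1.1, 1.30 and 1.25 for DMSO, 0.51, 0.33 and 0.50 for rapamycin, -1.01, -1.62 and 0.54 for BA+DMSO and -3.03, -1.51 and -3.17 for BA+rapamycin. The group means descended in that order, and the rapamycin arrays were all below the DMSO arrays. The falls under the challenge were -1.92 (SE 0.52, adjusted p = 0.0261) and -3.01 (SE 0.52, adjusted p = 0.00207). The first adjusted p was 0.0625 to 0.0904 without any 1 of the DMSO arrays or BA+DMSO replicate 1 or 2. The differences were -1.27 (adjusted p = 0.188) and -1.88 (adjusted p = 0.224) with array brightness as a covariate. Only 1 of 3 BA+rapamycin arrays was well above background.

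Ryr2 encodes the cardiac calcium release channel, which smooth muscle also uses. Its values were 0.16, 0.43 and 0.17 for DMSO, 0.06, -0.36 and 0.54 for rapamycin, -2.13, -2.10 and -0.40 for BA+DMSO and -0.87, -1.55 and -1.31 for BA+rapamycin. No array of a challenged group reached its control group, and the falls were -1.80 (SE 0.42, adjusted p = 0.0143) and -1.33 (SE 0.42, adjusted p = 0.0276). With array brightness as a covariate the second difference turned to 0.31 (adjusted p = 0.713). The first adjusted p was 0.0616 and 0.0586 without DMSO replicate 2 or BA+DMSO replicate 1, and the second 0.0658 to 0.106 without rapamycin replicate 1 or 3 or BA+rapamycin replicate 2 or 3.

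Pvalb encodes parvalbumin, the calcium buffer of fast fibres, and was the only gene that passed the test as higher in both comparisons. It read -2.37, -2.42 and -2.29 for DMSO, -1.97, -1.98 and -2.54 for rapamycin, -0.97, -0.10 and -1.74 for BA+DMSO and -0.41, -0.10 and -0.71 for BA+rapamycin. Every challenged array was above every unchallenged one, with rises of 1.42 (SE 0.35, adjusted p = 0.0178) and 1.76 (SE 0.35, adjusted p = 0.00397). The first adjusted p was 0.0519 to 0.0681 without DMSO replicate 1 or 2 or BA+DMSO replicate 1. With the common floor the rises were 1.35 (adjusted p = 0.0283) and 1.67 (adjusted p = 0.00776), whereas with array brightness as a covariate they shrank to 0.55 (adjusted p = 0.0571) and 0.22 (adjusted p = 0.609). A second Pvalb probe was above background on no array, so the rises rest on 1 probe. Atp2a1, the fast calcium pump, passed no test, with -0.44 (adjusted p = 0.366) and 0.23 (adjusted p = 0.589).

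By fibre class, the fast genes had a median difference of -0.44 under the challenge alone and 0.65 under the challenge with rapamycin, and the cardiac genes -0.82 and 1.51. Fast genes split, since Mybpc2 and Casq1 fell while Pvalb rose, and with rapamycin Tnni2 and Myl1 rose too. All 8 cardiac genes were lower under the challenge, of which Ryr2 passed the test, and 6 of 8 were higher with rapamycin, of which Myl7 and Mybpc3 passed. Among all genes 11% passed as lower under the challenge and 19.8% as higher with rapamycin. The common striated genes had medians of -1.22 and 0.03, and with the common floor the first of these was -0.45. Without BA+DMSO replicate 2 the medians under the challenge were -0.81 for fast, -1.53 for cardiac and -1.59 for common genes. In that fit 4 of 8 cardiac genes passed as lower, where 28.4% of all genes passed in either direction. With array brightness as a covariate the medians with rapamycin turned to -0.02, -0.25 and -1.47. Under the challenge alone that fit gave -0.54 for fast, -1.84 for cardiac and -1.41 for common genes.

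Within the DMSO group and each challenged group, most cardiac genes were highest on the same array. Their median difference from the DMSO mean was -0.80, 0.03 and 0.87 on the DMSO arrays, -0.88, -1.29 and -1.43 for rapamycin, -1.60, 0.94 and -1.35 for BA+DMSO and 1.36, 0.43 and -1.22 for BA+rapamycin. The median of all genes stayed between -0.11 and 0.01 on every array. BA+rapamycin replicate 1 was the highest of its group for 8 of 8 cardiac genes, BA+DMSO replicate 2 for 7 of 8, and DMSO replicate 3 for 6 of 8. No such order was seen in the rapamycin group, whose replicates 1 to 3 were highest for 4, 1 and 3 of the 8 genes and lowest for 0, 4 and 4. The arrays that led were not particular to cardiac genes, since BA+rapamycin replicate 1, BA+DMSO replicate 2 and DMSO replicate 3 were highest for 21, 25 and 19 of all 33 sarcomere genes. In each challenged group this median differed by over 2 log2 units between the highest and the lowest array.

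The median spread within groups (pooled SD, log2) was 0.65 over the 33 genes and 0.33 over all genes tested. It was widest for the oxygen carrier myoglobin (Mb, 2.08), the M-band gene Myom2 (2.00), Myh6 (1.98) and cardiac actin (Actc1, 1.70). Mb read -2.88, -0.66 and -0.25 for DMSO, -3.09, -3.52 and -3.75 for rapamycin, -5.46, 0.01 and -5.63 for BA+DMSO and 1.05, -1.46 and -3.33 for BA+rapamycin. Actc1 read 1.14, 1.71 and 2.77 for DMSO, 0.03, -0.25 and 0.21 for rapamycin, -2.34, 2.85 and -0.90 for BA+DMSO and 3.31, 2.36 and -0.38 for BA+rapamycin. Both stood high on BA+DMSO replicate 2 and BA+rapamycin replicate 1, and low on BA+DMSO replicates 1 and 3.

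**Figure D4:**
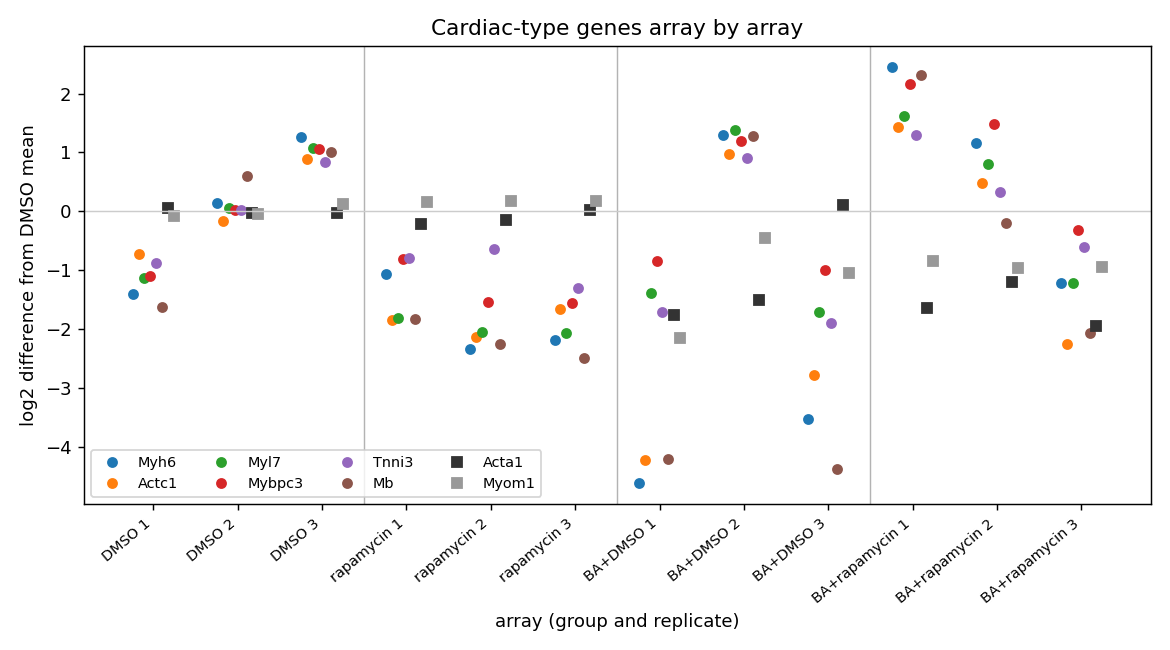
Difference from the DMSO mean (log2) on each array for Myh6, Actc1, Myl7, Mybpc3, Tnni3 and Mb (circles), with Acta1 and Myom1 (squares) for comparison. The circles of BA+DMSO replicate 2 and BA+rapamycin replicate 1 lie above 0 and those of BA+DMSO replicates 1 and 3 below it. Mb is a common striated gene, and the cardiac genes Ryr2, Myl4 and Tnnt2 are not shown. Ryr2 lay below its DMSO mean on BA+DMSO replicate 2 and BA+rapamycin replicate 1, and Tnnt2 on BA+DMSO replicate 2.

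Sarcolipin (Sln), a regulator of the calcium pump in atrial and skeletal muscle, followed the same arrays, although it is not among the 47. It read -0.93, 0.72 and 1.50 for DMSO, -0.88, -1.50 and -1.92 for rapamycin, -5.40, 1.93 and -3.42 for BA+DMSO and 3.07, 1.95 and -0.50 for BA+rapamycin. Neither challenge difference passed the test (adjusted p = 0.232 and 0.142).

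The effect of rapamycin was compared in challenged mice (BA+rapamycin against BA+DMSO), which shares the BA+DMSO arrays with the first comparison and the BA+rapamycin arrays with the second. No sarcomere gene passed the limma test, against 0.305% of all genes, and 7 of the 33 had an unadjusted p under 0.05, a share near the 20.5% of all genes. The smallest adjusted p was 0.123, for Casq1, with a difference of -1.87 (SE 0.52). The median difference was 0.51, against -0.03 for all genes, and 26 genes were higher and 7 lower. All 8 cardiac genes were higher, with a median of 1.1. With array brightness as a covariate 7 of the 8 were higher, with a median of 0.53. All 6 markers of mesothelial cells were lower, with a median of -1.91, and none of them passed limma's test (smallest adjusted p = 0.137). Their part in the result was not tested. Only 2 of the 33 genes did not overlap between the groups, against 14.9% of all genes.

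These values depended on the arrays used. Without BA+rapamycin replicate 1, the highest of its group for 8 of 8 cardiac genes, 0 of the 33 passed and their median was 0.265. Without BA+DMSO replicate 2, 11 of the 33 genes passed, where 41.0% of all genes did, and the median of the cardiac genes was 1.99. That array was singled out because many of these genes were high on it, so the adjusted p-values of this fit are not independent support. Among the 11, Myh6 was higher by 4.87 (adjusted p = 0.00762), Actc1 by 3.38 (adjusted p = 0.0197) and Tnni3, the cardiac troponin I gene, by 2.13 (adjusted p = 0.0171). Mb also passed as higher (adjusted p = 0.0154). No fold is given for Mb, since neither remaining BA+DMSO array was well above background. Casq1 was lower by this fit, at -2.33 (adjusted p = 0.00899). The challenge alone then called 12 sarcomere genes in place of 8, as the share of all genes called went from 21.4% to 28.4%. The 12 included Myh6 at -4.07 (adjusted p = 0.0182), Actc1 at -3.49 (adjusted p = 0.0223) and Tcap at -2.32 (adjusted p = 0.0121).

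In unchallenged mice rapamycin was set against DMSO, a comparison that shares its DMSO arrays with the first and its rapamycin arrays with the second. Again, no sarcomere gene passed the limma test, and 6 of the 33 had an unadjusted p under 0.05, against 4.43% of all genes. Among all genes 0.00499% passed. The median difference was -0.45, against -0.01 for all genes, with 26 genes lower. All 8 cardiac genes were lower, with a median of -1.19, whereas all 6 mesothelial markers were higher, with a median of 1.11 and none called. For 16 of the 33 genes the groups did not overlap, 13 of them lower, against 22.4% of all genes. Actc1 differed by -1.88 (SE 1.19), Myl1 by -1.83 (SE 0.83) and Casq1 by -0.77 (SE 0.52), while Tcap stood higher by 1.21 (SE 0.70). The rapamycin arrays lay on both slides, and within the first slide, where rapamycin replicate 1 meets the DMSO arrays, the median of the 33 was -0.69.

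Whether rapamycin acted otherwise under the challenge was tested by the interaction, the difference between its effects in challenged and unchallenged mice, which uses all 12 arrays. No sarcomere gene passed the limma test and 0% of all genes did. Of the 33, 7 had an unadjusted p under 0.05, against 6.01% of all genes, and the smallest adjusted p was 0.737. The median was 0.71, and all 8 cardiac genes were above 0, with a median of 2.39. With array brightness as a covariate the cardiac median was 1.42. All 6 mesothelial markers were below 0, with a median of -2.74 and none called. Without BA+DMSO replicate 2 the median of the 33 was 1.13 and 8 of them passed, against 11.2% of all genes, among them Myh6 with 6.73 (adjusted p = 0.0335). Without BA+rapamycin replicate 1, 0 of the 33 passed.

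Related genes of the muscle fibre outside the 47 were taken from 5 written lists with 82 genes, of which 55 were tested. Here, and for the cell type markers below, a gene could again enter through the group where it was highest. Of the 55, 17 passed under the challenge, 16 of them lower, and 21 passed with rapamycin, 16 lower. Among all genes 21.4% passed under the challenge, 11% as lower, and 42.7% with rapamycin, 22.9% as lower, so that 21 of 55 is below the share of all genes. Among 18 regulators of muscle genes, 11 were tested and all 11 were lower in both comparisons, of which 6 and 7 passed, where 11% and 22.9% of all genes passed as lower. Srf, whose product binds CArG boxes, fell by 1.66 (SE 0.26, adjusted p = 0.00232) and 1.54 (SE 0.26, adjusted p = 0.00199). It read 3.75, 3.69 and 3.52 for DMSO, 3.24, 3.43 and 3.54 for rapamycin, 1.61, 1.79 and 2.61 for BA+DMSO and 1.84, 2.22 and 1.53 for BA+rapamycin, with no overlap. Vgll2, a skeletal muscle cofactor of TEAD factors, was at least 2.62-fold lower under the challenge (adjusted p = 0.0242), since no BA+DMSO array was well above background. With rapamycin, Six4 and Mef2c, both regulators of muscle genes, fell by 1.82 (adjusted p = 0.00384) and 1.67 (adjusted p = 0.00431).

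Of 14 genes for calcium handling and the triad, 10 were tested, and 3 passed under the challenge, all lower (11% of all genes passed as lower). Atp2a2, the calcium pump of slow, cardiac and smooth muscle, fell by 1.75 (adjusted p = 0.00307) and 1.78 (adjusted p = 0.00172), and Srl, a calcium-binding protein of the reticulum, differed by -2.16 (adjusted p = 0.0654). With rapamycin 1 gene passed as higher and 2 as lower, below the 42.7% of all genes that passed. In muscle metabolism, 8 of 10 genes were tested, with 3 lower under the challenge, Phkg1 (-1.22, adjusted p = 0.0121) and Pfkm (-1.06, adjusted p = 0.0155) leading, against the same 11%. Under the challenge with rapamycin 2 rose, Cox6a2, a respiratory chain subunit of striated muscle (2.78, adjusted p = 0.0406), and Pgam2, a muscle glycolytic enzyme (2.20, adjusted p = 0.00943), and 4 fell, against 19.8% and 22.9% of all genes. The rapamycin arrays of these 2 genes stood below the DMSO arrays, by 1.94 for Cox6a2 and 1.49 for Pgam2, neither called.

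Among 30 genes of the Z-disc, costamere and protein turnover, 28 were on the array and 21 tested, with 1 higher and 4 lower under the challenge, near the 21.4% of all genes that passed. With rapamycin 2 were higher and 3 lower, below the 42.7% of all genes. Murc, a caveolar protein of muscle, passed as higher (adjusted p = 0.00146), with values between -3.33 and -1.09 for BA+DMSO and between -6.44 and -5.95 for DMSO. No DMSO array and only 2 of 3 BA+DMSO arrays cleared the background for Murc, so no fold is given. Since only 1 rapamycin array cleared it, Murc entered the test through BA+rapamycin alone, a challenged group where it was high. Capn3, the muscle calpain, fell by 2.46 (adjusted p = 0.00501) and by 3.06 with rapamycin (adjusted p = 0.00108). Of 10 further sarcomere genes, 5 were tested and none passed limma's test in either comparison, with 0 and 1 at an unadjusted p under 0.05. Their largest difference was that of the perinatal myosin Myh8, 2.95 with rapamycin (adjusted p = 0.0568).

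Markers of cell types that the tissue could hold were read from 10 written lists, and their part in the results above was not tested. Their counts are to be read against the 10.4% of all genes that passed as higher and the 11% that passed as lower under the challenge, and the 19.8% and 22.9% with rapamycin. Of 9 cardiomyocyte markers, Nkx2-5, Bmp10, Kcnj3 and Corin were well above background on no array. The atrial hormone gene Nppa differed by -0.23 (adjusted p = 0.799) under the challenge and by 1.31 (adjusted p = 0.0783) with rapamycin, and the cardiac transcription factor Tbx20 by -0.62 (adjusted p = 0.527) and -1.39 (adjusted p = 0.102). Of 7 satellite cell markers, Myod1, Myf5, Pax7, Chodl and Calcr were on no array above background, and Megf10 rose by 2.10 (adjusted p = 0.0152) and 1.85 (adjusted p = 0.0147).

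All 15 smooth muscle markers, the defining genes of the labelled tissue, were tested, and their summed level was 4490 to 4760 for DMSO, 4100 to 4650 for rapamycin, 3440 to 6830 for BA+DMSO and 4680 to 5920 for BA+rapamycin. Under the challenge 5 passed as lower and 0 as higher, Synpo2 (-2.58, adjusted p = 0.000955) and Lmod1 (-1.91, adjusted p = 0.0019) falling most, and with rapamycin 5 were lower and 1 higher. Among all genes 11% were lower under the challenge, and 42.7% passed with rapamycin, so that 6 of 15 is near that share. Their median was -1.53, -0.10 and -0.40 on BA+DMSO replicates 1 to 3, against -1.60, 0.94 and -1.35 for the cardiac genes. Macrophage markers rose in 7 of 7 genes under the challenge and 4 of 7 with rapamycin. Mesothelial markers passed as higher in 4 of 6 and 0 of 6, endothelial markers in 3 of 7 and 1 of 7, with 2 of 7 lower in the second. Of 8 tested brown adipocyte markers 3 passed under the challenge, with Ucp1 at least 6.47-fold higher (adjusted p = 0.0143), Dio2 higher by 1.72 (adjusted p = 0.00292) and Fabp3 lower, at -1.52 (adjusted p = 0.0212). Only in BA+DMSO did Ucp1 clear the background on every array. It entered the test through the group where it was high, and its adjusted p is not independent support. With rapamycin 5 of the 8 passed, 2 higher, namely Dio2 (1.73, adjusted p = 0.0017) and Cpt1b (1.73, adjusted p = 0.0129), and 3 lower, namely Cidea (-2.61, adjusted p = 0.00382), Fabp3 (-1.12, adjusted p = 0.0409) and Ppargc1a (-1.02, adjusted p = 0.0408), while Ucp1 differed by 0.55 (adjusted p = 0.674). None of 7 white adipocyte markers passed limma's test in either comparison, with 0 and 2 at an unadjusted p under 0.05. The adipocyte median differed within groups as well, at 1.33, 2.52 and 0.29 for BA+DMSO and 2.94, -0.35 and 1.28 for BA+rapamycin. Of 5 tested Schwann cell markers 3 passed in each comparison, 2 of them higher, and of 8 kidney and adrenal markers 7 were above background on no array.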

How the data were processed

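Aortic RNA of 12 samples was labelled with Cy3 for 1-colour Agilent arrays of the mouse genome, which filled 2 slides. The headers of the files name Feature Extraction 10.7.1.1 and the submitters' processing notes version 9.5.1.1. The deposited processed signal is a linear intensity after background subtraction, with no scaling from array to array. Per the file headers, further columns flag with 0 or 1 the spots that clear the background or are outlying. The deposited matrix holds intensity that, from its values, was quantile normalized, and it was used as an alternative.

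Samples were grouped by their treatment labels and replicates numbered in the order of deposition. Titles in the DMSO group start with Pre, whereas the series record places every sample at day 3. Signals were put on the log2 scale, outlying spots removed, spots of a probe averaged, and the 75th percentile of each array subtracted. Of 55681 probes, 6 were dropped for missing values. Testing a probe required a share of at least 0.5 of its spots clear of background on every array of some group, which left 27801 probes of 20026 genes. All 12 arrays entered 1 limma 3.58.1 model (R 4.3.3) with a mean for each of 4 groups. Tests were two-sided, adjusted by the Benjamini-Hochberg method over all tested probes, and called at an adjusted p under 0.05. A gene stood by its tested probe with the highest mean. The number of arrays limits the precision.

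The sarcomere genes, classes and other lists were chosen with earlier results of these data known. Values on every array are given for the 2 brightest tested genes of each class and for up to 4 called rises and 4 called falls per comparison; Ldb3, Mb, Actc1, Sln, Srf, Atp2a2, Myl2, Myl7, Nrap, Tnni3, Tnnt3, Atp2a1 and Myh4 were added after their values were seen. Where no array of a group was well above background, folds are bounds against the lowest signal well above background on each array. Alternatives changed the normalization, background correction, filter, probe choice, batch terms and arrays. The fit was tested on simulated data for the challenge, where it called 97% of 100 probes changed by 3 log2 units and 55% of 100 changed by 1.5. The simulated noise was independent, with the same spread in every group, and no other probe changed. The real arrays differ in this, so these shares check the fit and do not give its power on these data. The result of 1 cardiomyocyte marker is not reported here.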

Additional observations from a re-analysis of the deposited data

Results flagged for a closer look

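Of the genes that no test used, 3 were well above background on an array outside the DMSO group and on no DMSO array. The fast myosin heavy chains Myh1 and Myh2 were above background only on BA+rapamycin replicate 1, at -1.96 and -1.30. The slow and cardiac calcium-storing gene Casq2 was above background only on BA+DMSO replicate 3, at -3.18. These are single arrays and were not compared. No difference between the effects of rapamycin with and without the challenge passed the interaction test. Groups of 3 arrays are too small for the range-based check of outlying samples; BA+DMSO replicate 2, which stood apart, is described with the results.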

How the results depend on the processing

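The count of 8 sarcomere genes under the challenge was 4 among probes above background on all 12 arrays, 0 with slide as a block, 1 from the compared groups alone, 0 with array weights and 1 by the rule the study applied (a fold over 4 or under 0.25 at p under 0.01, not adjusted). The share of all genes called, 21.4% in the main fit, was 24.8%, 0.0599%, 4.78%, 0.494% and 2.83% in that order. With 1 array left out the count was 2 to 12 and the share 7.87% to 39.4%. The count of 16 with rapamycin was 28 of 47 without a filter on dim probes, 7 within slide, 7 by the study's rule, 2 with array brightness as a covariate and 10 to 20 with 1 array left out. The share of all genes called, 42.7% in the main fit, was 51.3%, 12%, 5.43% and 6.91% in that order. With 1 array left out that share was 24.2% to 58.3%. For rapamycin under challenge the count of 0 became 1 with the brightness covariate and 0 to 11 with 1 array left out, where 1.21% and up to 41% of all genes passed. For rapamycin alone it became 2 with array weights, where 5.75% of all genes passed, and was 0 to 0 with 1 array left out. For the interaction the count was 0 to 8 with 1 array left out, where up to 11.2% of all genes passed. Causes were not tested.

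The median differences kept their sign under all alternatives that could be fitted but 1: with the brightness covariate, chosen after seeing the data like the common floor, that of the challenge under rapamycin was -0.312. With 1 array left out the medians were -1.092 to -0.49 for the challenge, 0.265 to 0.683 for rapamycin under challenge, -0.534 to -0.408 for rapamycin alone, 0.355 to 0.704 for the challenge under rapamycin and 0.541 to 1.13 for the interaction. Among called genes, with rapamycin, Actn2 reversed to 0.046 with the probe of lowest mean, and with the brightness covariate Ryr2 reversed to 0.309, Myl1 to -0.08 and Myl7 to -0.471. Scaling to probes above background on all arrays moved the all-gene median of the challenge under rapamycin from -0.067 to 0.118, and omitting the filter moved it to 0.687. The challenge and the interaction could not be fitted within a slide. No paired analysis was possible because replicate numbers follow the order of deposition and pair no mice. Most sample titles also hold a number that the labels do not explain and that some arrays of different groups share. With it as a random block (correlation 0.496) the counts of sarcomere genes were 8, 0, 0, 15 and 0 for the challenge, rapamycin under challenge, rapamycin alone, the challenge under rapamycin and the interaction, and the median for the challenge was -1.218 in place of -0.737, whereas without a filter on dim probes it was -0.215 and with normexp background correction -0.307. In the challenge under rapamycin, Myom1 and Ryr2 then had adjusted p of 0.0517 and 0.0567, and in rapamycin under challenge 1.69% of all genes passed in place of 0.305%.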
